A study of Mus musculus with 3 samples.

Results

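A set of 9 interferon-stimulated genes and their transcription factors was followed in mouse muscle, taken as the rows whose symbol is Ifit1, Ifit2, Ifit3, Isg15, Irf7, Irf9, Bst2, Ifitm3 or Psmb8, out of 24481 gene rows. Each of the 9 symbols was found on 1 row. The tissue was skeletal muscle, taken at postnatal day 42 from ICR mice, which are an outbred stock, in a study whose title concerns fatigue and extracts from leaves of Sasa quelpaertensis. The 3 groups were exercise plus SQH, exercise control, and control, the last with neither exercise nor SQH in its label. What SQH stands for, its dose, the exercise protocol, the name of the muscle and the number of animals behind a library are not given in the labels. Each group had 1 library, so the differences carry neither replicate error nor p-value, and group and library cannot be told apart.

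Interferon-stimulated genes are transcribed when a cell senses an interferon or, for some of them, viral nucleic acid directly. Type I interferons bind a receptor coupled to the kinases Jak1 and Tyk2, which activate transcription factors that join Irf9 in a complex, and this complex binds an interferon-stimulated response element in the promoters of its targets. Skeletal muscle fibres carry the receptor and can express these genes, as is known from viral infection and from inflammatory muscle disease.

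The libraries sequenced the 3' ends of transcripts and were deposited as log2 levels. The spacing of low values put their depth at about 12.4, 8.12 and 10.8 M reads in exercise plus SQH, exercise control and control. A row was called higher or lower when its log2 levels differed by at least 1, a fold of 2, and its mean linear level over the 3 libraries was at least 66.5, the median of the rows above 0 somewhere. The range in parentheses after a difference is the exact 95% interval for the ratio of the approximate reads. It covers counting error only, and neither animals nor library preparation. Skeletal muscle markers such as Acta1, Ttn and Ckm were abundant throughout, with summed linear levels of 1277591 in exercise plus SQH, 1251860 in the exercise control and 1280148 in the control. Slow-fibre markers, by contrast, summed to 441690 in exercise plus SQH, 46774 in the exercise control and 559919 in the control, and nerve and Schwann cell markers to 1346, 4430 and 1249 in the same order. The exercise control library therefore stood apart in its fibre and nerve transcripts, and the part of this in the results below was not tested. In bulk muscle, fewer cells of a type and less RNA per cell cannot be told apart.

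The promoters are shown first because they separate the 9 genes by sequence alone. The windows run from 250 bases before to 50 bases after each annotated start, in RefSeq on mouse build GRCm38.p6. They were searched on both strands, with overlapping matches allowed, for GAAANNGAAA, the core of the interferon-stimulated response element. Of the 9 genes, 5 held a match (Ifit3, Ifit1, Isg15, Bst2 and Ifitm3) and 4 did not (Ifit2, Irf7, Irf9 and Psmb8). Over all genes with such a window 3.99% held one, and 3.44% of 32851 windows did. For Irf9 and Psmb8 the RefSeq windows begin inside the gene spans given below, so bases upstream of those spans were not searched. The sequences of Ifit3 and of its neighbouring near-copy Ifit3b, which is not among the 9, follow with those of Bst2 and Isg15, since the results turn on these genes. They are written 5′ to 3′ along the gene's strand, with the bases of each match in capitals. The Ifit3 window lies at chr19:34583279-34583578 on the plus strand, that of Ifit3b at chr19:34607707-34608006 on the plus strand, that of Bst2 at chr8:71537423-71537722 on the minus strand and that of Isg15 at chr4:156200769-156201068 on the minus strand.
Ifit3: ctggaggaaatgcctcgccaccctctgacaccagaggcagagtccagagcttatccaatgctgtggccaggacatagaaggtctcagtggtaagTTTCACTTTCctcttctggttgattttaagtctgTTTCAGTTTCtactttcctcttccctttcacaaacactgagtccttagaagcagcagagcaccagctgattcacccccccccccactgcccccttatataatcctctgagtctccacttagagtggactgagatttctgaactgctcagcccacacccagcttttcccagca
Ifit3b: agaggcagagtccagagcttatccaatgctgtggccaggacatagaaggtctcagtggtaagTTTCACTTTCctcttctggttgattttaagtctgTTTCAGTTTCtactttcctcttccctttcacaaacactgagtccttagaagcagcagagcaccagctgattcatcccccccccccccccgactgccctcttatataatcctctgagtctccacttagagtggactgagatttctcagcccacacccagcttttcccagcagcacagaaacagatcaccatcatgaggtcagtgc
Bst2: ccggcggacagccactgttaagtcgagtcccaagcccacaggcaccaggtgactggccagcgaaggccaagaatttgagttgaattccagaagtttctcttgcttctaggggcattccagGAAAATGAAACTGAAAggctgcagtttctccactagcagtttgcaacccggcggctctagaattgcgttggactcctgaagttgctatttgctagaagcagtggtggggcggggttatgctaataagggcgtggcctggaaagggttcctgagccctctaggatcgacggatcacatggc
Isg15: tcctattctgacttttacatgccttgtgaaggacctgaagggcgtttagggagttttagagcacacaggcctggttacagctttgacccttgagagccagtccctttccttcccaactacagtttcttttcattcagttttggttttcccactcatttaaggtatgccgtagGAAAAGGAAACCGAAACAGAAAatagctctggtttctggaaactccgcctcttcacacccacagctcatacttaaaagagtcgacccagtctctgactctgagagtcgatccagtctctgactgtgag
The Ifit3 and Ifit3b windows matched at 259 of 260 aligned bases (99.62%), and each held 2 separate matches on the strand opposite to the gene. The 2 matches in Bst2 overlap, as do the 3 in Isg15, so that each gene has a single tract, on its own strand. A match describes letters in the window, and no binding was measured.

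**Figure D1:**
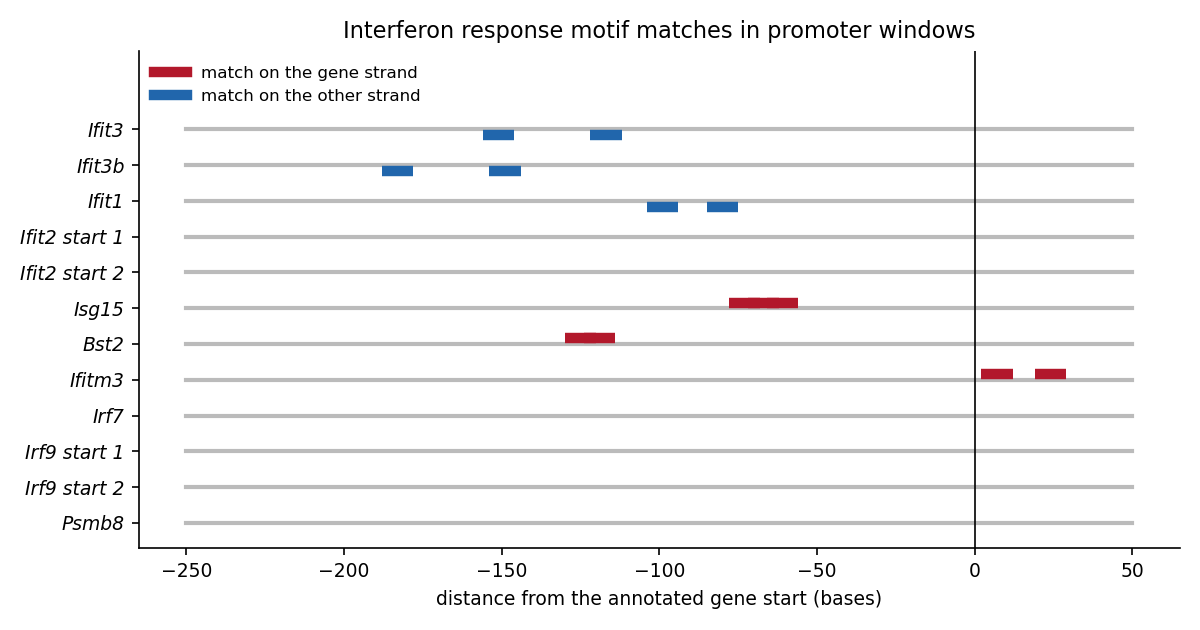
Position of GAAANNGAAA matches on either strand in the promoter windows, in bases from the annotated start, 1 row per window and 1 colour per strand. Ifit3, Ifit3b, Ifit1, Isg15 and Bst2 have matches upstream of the start, Ifitm3 has them just after it, and the windows of Irf7, Irf9, Ifit2 and Psmb8 have none.

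Among the 9, only Ifit3 was called in any comparison. Bst2, which did not reach the minimum level, differed more from the control in both exercised libraries. Ifit3 encodes a protein of tetratricopeptide repeats that, in human cells, binds and stabilises IFIT1 in its complex with viral RNA. The gene lies at chr19:34583531-34588731 (GRCm38, plus strand) in the Ifit cluster. Its log2 level was 6.59 in exercise plus SQH, 7.49 in the exercise control and 5.30 in the control, from about 125, 151 and 42 reads. The exercise control was highest and the control lowest, and both steps in this order were larger than counting error.

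Set against the control, the exercise control showed Ifit3 4.55-fold higher (log2 difference 2.19, 1.69 to 2.72). Exercise plus SQH was 0.537-fold of the exercise control (-0.90, -1.26 to -0.55), which is under the 2-fold size and so was not called. Exercise plus SQH was still 2.44-fold above the control (1.29, 0.77 to 1.83). Ifit3 was thus called higher than in the control in both exercised libraries. Of the 9 genes, 3 (Ifit3, Irf9 and Ifitm3) passed the minimum level. Ifit3, at 39.4 linear units in the control, passed it only through the exercised libraries where it was high (96.1 in exercise plus SQH and 179 in the exercise control), so its call is not independent of that minimum. None of the other 6 genes reached 66.5 in any library, and Psmb8, the highest of them, was at 49.7 in the control. Ifit3 was the 1 called in exercise control against control, where 2.95% of all 7857 rows past the minimum were called higher and 5.33% lower (8.29% in either direction). None of the 3 was called in exercise plus SQH against exercise control, where 8.01% of rows were called in either direction, 5.68% higher and 2.33% lower. In exercise plus SQH against control Ifit3 was again the 1 called, beside 1.76% of rows higher and 1.26% lower (3.02% in either direction). The 3 comparisons share libraries, so these are not separate results.

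**Figure D2:**
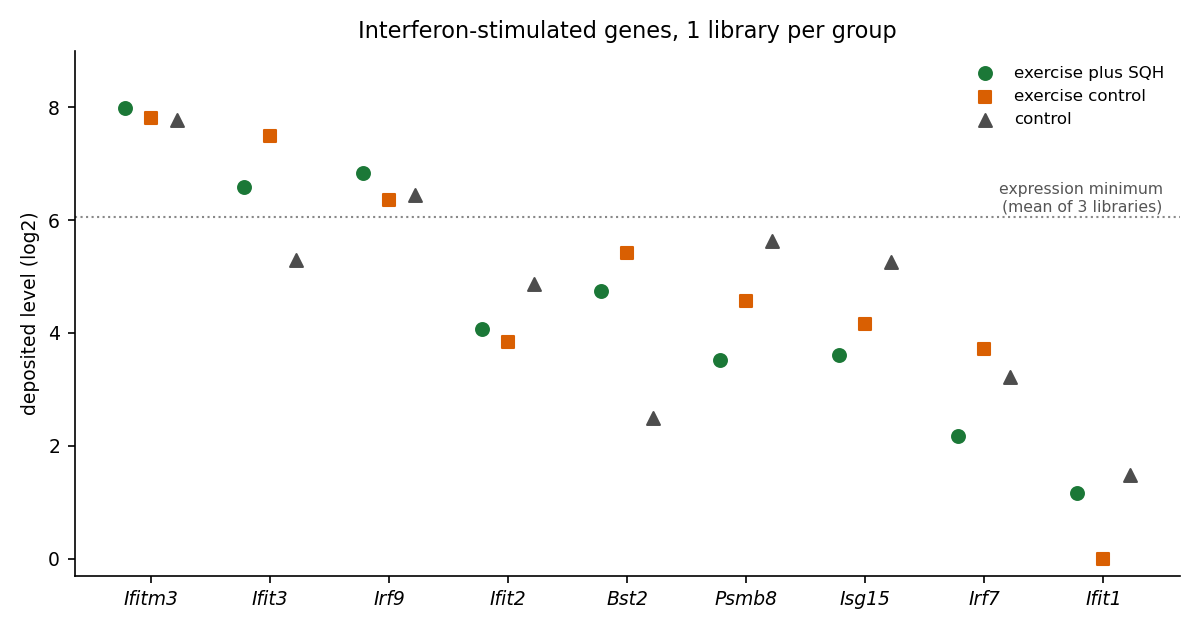
Deposited log2 level of the 9 genes in each library (1 point per library, 1 library per group, no error bar), with a dotted line at the minimum level of 66.5 linear units that the mean over the libraries had to reach. Ifit3 is highest in the exercise control at 7.49 and lowest in the control at 5.30, whereas Psmb8 and Isg15 are highest in the control.

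Ifit3 reads can be confused with those of Ifit3b, which lies downstream at chr19:34607970-34613401 on the same strand. Their transcripts were identical at 98.00% of 1697 aligned bases, and at 95.17% over the last 500 bases of Ifit3, where a 3' library takes its reads. Of the 451 stretches of 50 bases in that end, 67 (14.86%) also occurred in Ifit3b. At the end of Ifit3b, 8 of 451 stretches (1.77%) occurred in other transcripts, and none of these was Ifit3. Neither read length nor the handling of reads that match both was given in the sources used here, so the split between the pair is uncertain.

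Ifit3b had log2 levels of 5.30 in exercise plus SQH, 4.25 in the exercise control and 3.72 in the control, from about 51, 16 and 14 reads. It was therefore highest in exercise plus SQH, where Ifit3 was below its exercise control level. Ifit3b was higher in exercise plus SQH than in the exercise control by 1.05 (0.21 to 1.95), while the exercise control differed from the control by 0.53 (-0.60 to 1.68), within counting error. It did not reach the minimum level. Ifit3b made up 29.1% of the pair's linear sum in exercise plus SQH (exact binomial 95% interval 22.4 to 36.3), 9.59% in the exercise control (5.58 to 15.1) and 25.0% in the control (14.4 to 38.4). The exercise control share was the lowest, and its interval did not overlap that of exercise plus SQH, though it overlapped that of the control.

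The sum of the pair does not depend on how reads were split between them, though any shared reads that were discarded are missing from it. On the log2 scale it was 7.08 in exercise plus SQH, 7.63 in the exercise control and 5.71 in the control. The order of the libraries was that of Ifit3 alone. The sum was higher in exercise control than in control muscle by 1.92 (1.47 to 2.38) and higher in exercise plus SQH than in the control by 1.37 (0.92 to 1.82). Exercise plus SQH lay 0.55 below the exercise control (-0.55, -0.87 to -0.24), a smaller gap than the -0.90 of Ifit3 alone.

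**Figure D3:**
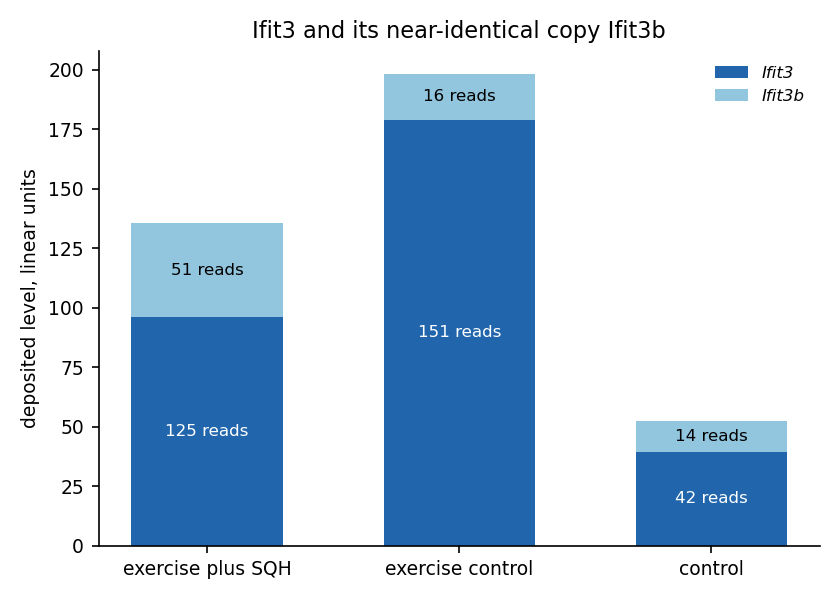
Deposited levels of Ifit3 (dark) and Ifit3b (light) in linear units, stacked to their sum, in each library (1 per group, no error bar), with the approximate reads written in the bars. The sum is 136 in exercise plus SQH, 198 in the exercise control and 52.5 in the control, and the Ifit3b share is lowest in the exercise control at 9.59%.

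The other Ifit genes did not share this pattern. Ifit2, whose protein binds RNA and restricts several viruses in mice, lies upstream of Ifit3 in the same cluster at chr19:34550694-34576419. Its log2 level was 4.08 in exercise plus SQH, 3.84 in the exercise control and 4.86 in the control, from about 22, 12 and 31 reads. The control was highest, in contrast to Ifit3. Ifit2 was lower in exercise control than in control muscle by a difference of -1.03 (-2.12 to -0.03), and the exercise plus SQH library lay between both, at 0.24 from the exercise control (-0.83 to 1.39) and -0.78 from the control (-1.64 to 0.05).

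Ifit1, whose protein binds viral RNA that lacks methylation of its cap (chr19:34640871-34650009, plus strand), was barely detected. It was at 1.16 in exercise plus SQH and 1.48 in the control, about 3 reads each, and was listed at 0 in the exercise control. These counts are at or under a floor of 3 reads, which in the exercise control equals 3.56 linear units, and no fold is given. Of the 2 remaining members of the family, Ifit1bl1 was listed at 0 in every library and Ifit1bl2 at 1.91 in the control alone, about 4 reads.

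The transcription factors on the list showed no called difference. Irf9, the DNA-binding subunit of that complex (chr14:55603571-55610030, plus strand), was at 6.84 in exercise plus SQH, 6.36 in the exercise control and 6.45 in the control, from about 149, 69 and 93 reads. Exercise plus SQH was highest, and the exercise control and control differed by less than counting error (-0.09, -0.56 to 0.38). Irf9 differed by 0.48 (0.06 to 0.91) between exercise plus SQH and the exercise control and by 0.39 (0.01 to 0.78) between exercise plus SQH and the control. It shares 123 of its 5386 exonic bases with Rnf31 on the same strand.

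Irf7, the factor that amplifies transcription of type I interferon genes (chr7:141262706-141266481, minus strand), rested on very few reads. Its log2 level was 2.18 in exercise plus SQH, 3.71 in the exercise control and 3.23 in the control, from about 6, 11 and 10 reads. Exercise plus SQH was lowest, but every interval included 0: 0.49 in exercise control against control (-0.90 to 1.87), -1.53 in exercise plus SQH against exercise control (-3.22 to 0.06) and -1.05 in exercise plus SQH against control (-2.77 to 0.58). At this depth a difference in Irf7 was not detectable. It shares 45 of its 3776 exonic bases with Phrf1 on the opposite strand.

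Against the control, Isg15 and Psmb8 ran in the direction opposite to Ifit3; between the exercised libraries all 3 were lower in exercise plus SQH, Isg15 within counting error. Isg15 encodes a ubiquitin-like protein that is attached to other proteins after interferon exposure, and lies at chr4:156199424-156200818 on the minus strand. Its log2 level was 3.61 in exercise plus SQH, 4.16 in the exercise control and 5.27 in the control, from about 16, 15 and 41 reads. The control was highest, and the exercised libraries did not differ from each other beyond counting error (-0.55, -1.65 to 0.58). Isg15 was lower than in the control by differences of -1.10 in the exercise control (-2.07 to -0.23) and -1.65 in exercise plus SQH (-2.58 to -0.78).

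Psmb8, a catalytic subunit that replaces Psmb5 in the immunoproteasome and shapes peptides for class I presentation (chr17:34197721-34201454, plus strand), had log2 levels of 3.52 in exercise plus SQH, 4.57 in the exercise control and 5.64 in the control. These rested on about 15, 20 and 53 reads. Exercise plus SQH was lowest and the control highest, with the exercise control between. Psmb8 was lower in exercise control than in control muscle by a difference of -1.06 (-1.89 to -0.30), and in exercise plus SQH than in the exercise control by another -1.06 (-2.11 to -0.01). Between exercise plus SQH and control the difference was -2.12 (-3.04 to -1.26), the most negative of the 9. The antisense gene Gm20496 covers 498 of its 3381 exonic bases, and the sources used here do not give strand handling. Both genes lay under the minimum level in mean and so were not eligible to be called.

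The membrane-bound restriction factors differed from each other. Bst2 encodes tetherin, which holds budding virions on the cell surface, and lies at chr8:71534255-71537456 on the minus strand. Its log2 level was 4.75 in exercise plus SQH, 5.42 in the exercise control and 2.49 in the control, from about 35, 36 and 6 reads. Both exercised libraries were above the control, as for Ifit3. The difference from the control was 2.93 in the exercise control (1.67 to 4.46) and 2.26 in exercise plus SQH (0.99 to 3.80), the highest of the 9 in both comparisons. Exercise plus SQH against exercise control gave -0.68 (-1.38 to 0.04), within counting error. Bst2 did not reach the minimum level, and its folds rest on about 6 reads in the control.

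In the mouse Bst2 is also a surface marker of plasmacytoid dendritic cells. The marker Siglech of those cells was at 2.21 in exercise plus SQH, 0 in the exercise control and 3.62 in the control, so it was listed at 0 where Bst2 was highest. Ccr9 and Ly6d, on the same list, were highest in the exercise control. Ccr9 was at 4.66, 5.67 and 5.58 and Ly6d at 0.55, 1.86 and 0.89 in the same order, Ly6d from 3 reads or fewer. In exercise control against control both were within counting error, Ccr9 at 0.09 (-0.53 to 0.71) and Ly6d at 0.96 (-2.20 to 4.51). Spib was listed at 0 in every library, and the summed level of the 5 markers (3517 in exercise plus SQH, 3523 in the exercise control and 4869 in the control) was nearly all Tcf4, a gene of many cell types. The part of these cells in the Bst2 difference was not tested.

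Ifitm3, which blocks the fusion of viruses in endosomes (chr7:141009586-141010770, minus strand), was the most evenly measured of the 9. Its log2 level was 7.99 in exercise plus SQH, 7.81 in the exercise control and 7.78 in the control, from about 331, 189 and 234 reads. No pair of libraries differed beyond counting error: 0.03 in exercise control against control (-0.25 to 0.32), 0.18 in exercise plus SQH against exercise control (-0.08 to 0.44) and 0.21 in exercise plus SQH against control (-0.03 to 0.46). Its paralog Ifitm2 was at 6.34, 6.49 and 4.55 in exercise plus SQH, exercise control and control, from about 105, 76 and 25 reads. Ifitm2 was higher than in the control in both exercised libraries, by 1.94 in the exercise control (1.28 to 2.66) and 1.79 in exercise plus SQH (1.14 to 2.47), without reaching the minimum level. Ifitm1 was at 2.19, 4.56 and 0 in the same order, and its 20 or so reads in the exercise control put it at least 8.40-fold higher than a floor of 3 reads in the control. Ends of these genes resemble each other: 63 of 451 stretches of 50 bases (13.97%) at the end of Ifitm3 and 189 (41.91%) at the end of Ifitm2 occurred in other transcripts, so reads of the family may be split between its members. Ifitm6, Ifitm7 and Ifitm10 were listed at 0 in every library, and Ifitm5 was above 0 in the exercise control alone, at 1.28, about 2 reads.

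**Figure D4:**
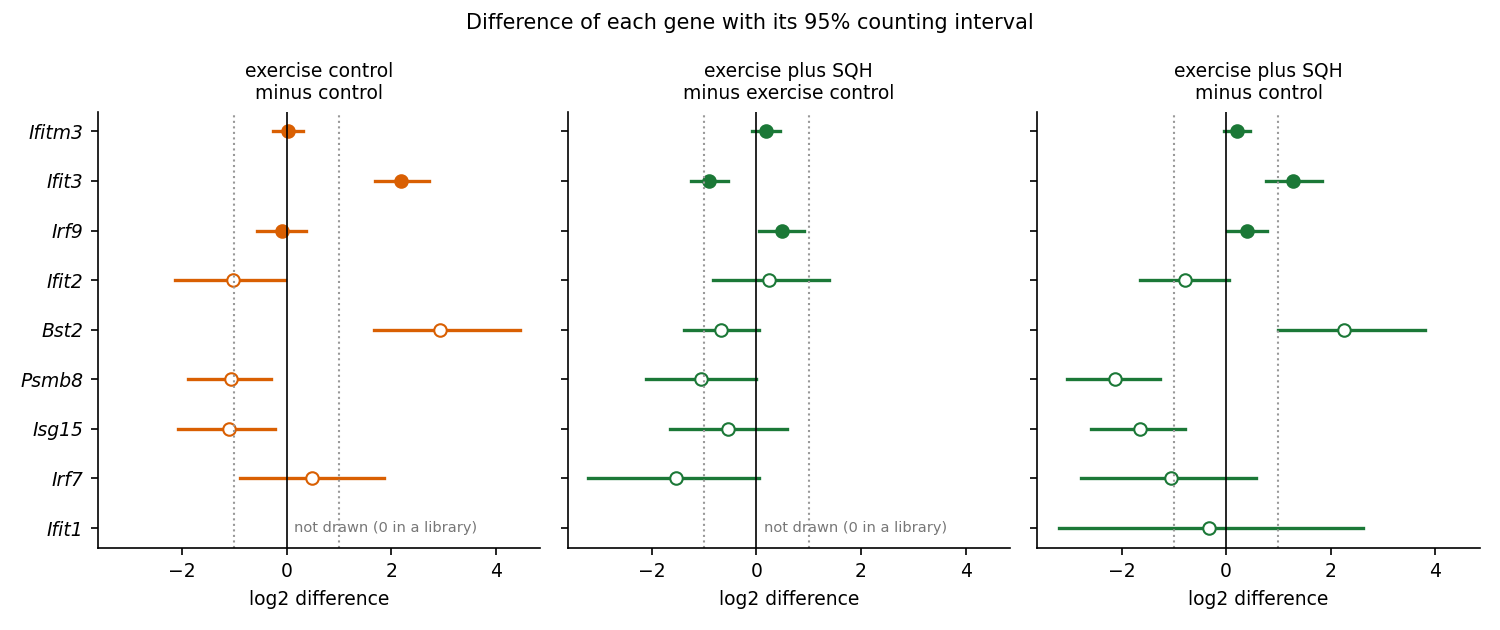
Log2 difference of each of the 9 genes in the 3 comparisons, with 95% counting intervals as bars and dotted lines at 1 and -1; filled points are the 3 genes past the minimum level, and Ifit1 is not drawn where it is 0 in a library. Ifit3 and Bst2 lie above 1 in both comparisons with the control, Isg15 and Psmb8 lie below -1 in both, and Ifitm3 lies near 0 in all 3.

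Ifit3 was set against the other members as a group. In exercise control against control it lay 2.27 above the median of the 7 others above 0 in both libraries (-0.09), and 6 of the 7 were below it, with Bst2 alone above. In exercise plus SQH against control it lay 1.84 above the median of 8 others (-0.55), and 7 of the 8 were below it, again all but Bst2. In exercise plus SQH against exercise control it lay -0.35 from the median of 7 others (-0.55), with 2 of the 7 below it. Ifit3 was therefore far from the middle of the list in both comparisons with the control and near it between the exercised libraries.

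The list as a whole did not move one way. The median difference of the members above 0 in both libraries was -0.03 in exercise control against control (8 members), beside -0.05 over all rows above 0 in both. It was -0.61 in exercise plus SQH against exercise control (8 members), beside 0.05, and -0.33 in exercise plus SQH against control (9 members), beside 0.00. The value of -0.33 is that of Ifit1, about 3 reads against 3, and is -0.29 without it.

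Without the minimum level, 5 of 8 members differed 2-fold or more in exercise control against control, Ifit3 and Bst2 higher and Psmb8, Isg15 and Ifit2 lower. Among all 13026 rows above 0 in both libraries, 8.54% were that much higher and 11.8% lower (20.3% in either direction). In exercise plus SQH against exercise control 2 of 8 did so, Irf7 and Psmb8, both lower, beside 7.64% of all rows lower and 11.8% higher (19.4% in either direction). In exercise plus SQH against control 5 of 9 did so, Ifit3 and Bst2 higher and Psmb8, Isg15 and Irf7 lower, beside 7.65% of all rows higher and 6.31% lower (14.0% in either direction). By the counting interval alone, the members whose interval left out 0 numbered 5 of 8, 3 of 8 and 5 of 9 in the 3 comparisons, namely Ifit3 and Bst2 higher and Psmb8, Ifit2 and Isg15 lower in exercise control against control, Irf9 higher and Psmb8 and Ifit3 lower in exercise plus SQH against exercise control, and Irf9, Ifit3 and Bst2 higher and Psmb8 and Isg15 lower in exercise plus SQH against control. Of all rows above 0 in both libraries, 22.2% lay higher and 27.8% lower by that reading in exercise control against control. The shares were 27.2% higher and 22.8% lower in exercise plus SQH against exercise control, and 22.5% higher and 22.4% lower in exercise plus SQH against control. The members' count by this reading was thus near that of all rows.

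The rows past the minimum level whose 3 levels followed Ifit3 most closely were not on the interferon lists used here. Few of the 7857 rows past that level are on those lists, so their absence among 8 rows is no finding about interferon genes. After each row was centred on its own mean, the 8 nearest of 7857 rows by Euclidean distance over the 3 libraries were Tbc1d1, Rad52, Tmem56, Aldh1l2, Gdpd1, B3gnt9, Sorbs3 and Gcat, at distances of 0.25 to 0.39 log2 units. Tbc1d1, which encodes a regulator of glucose transporter traffic in muscle, was at 8.67 in exercise plus SQH, 9.25 in the exercise control and 7.36 in the control. Without the minimum level, a reading chosen after seeing the data, 163 of 12698 rows above 0 in every library lay within 0.50 of Ifit3, and 4 of 108 such genes on the interferon lists did. These were Cmpk2 at 0.24, Tap1 at 0.37, Samd9l at 0.41 and Gbp9 at 0.49. Cmpk2, a mitochondrial nucleotide kinase gene induced by interferon, was at 4.32 in exercise plus SQH, 4.95 in the exercise control and 3.08 in the control, from about 26, 26 and 9 reads, and was thus nearer to Ifit3 than Tbc1d1. Of the other 8 members Bst2 was nearest, at 0.72, with 74 rows past the minimum level nearer than it, and the rest lay from 1.52 (Ifitm3) to 2.72 (Psmb8). With 3 libraries a pattern has few degrees of freedom, and 17 rows past the minimum level lay within 0.50 of Ifit3.

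The wider pathway was read from gene lists. Of 21 interferon ligand genes, 20 were listed at 0 in all libraries (Ifna1, Ifna2, Ifna4, Ifna5, Ifna6, Ifna7, Ifna9, Ifna11, Ifna12, Ifna13, Ifna14, Ifna15, Ifna16, Ifnab, Ifnb1, Ifne, Ifnk, Ifng, Ifnl2 and Ifnl3), and Ifnz had about 1 read in the exercise control alone. A floor of 3 reads corresponds to 2.30, 3.56 and 2.81 linear units in exercise plus SQH, exercise control and control, so ligand levels below that were not detectable. Of 11 receptor and JAK-STAT genes 7 passed the minimum level and none was called in any comparison, with medians of 0.00 in exercise control against control, -0.24 in exercise plus SQH against exercise control and -0.17 in exercise plus SQH against control. Ifnar1, a chain of the type I receptor, was at 7.02, 7.49 and 7.01 in exercise plus SQH, exercise control and control. Of the 9 Irf genes 4 passed the minimum level and none was called, with medians of 0.23, -0.26 and -0.03 in the same comparisons. Irf8, a factor of myeloid cells, had the widest difference of these, at 0.66 in exercise control against control (0.24 to 1.08) and -0.998 in exercise plus SQH against exercise control (-1.42 to -0.58).

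Of 50 further antiviral genes 12 passed the minimum level. None was called in exercise control against control (median -0.28) or in exercise plus SQH against control (median -0.18). In exercise plus SQH against exercise control 1 was called, lower (median 0.13). This was Rsad2, which encodes viperin, at 5.55 in exercise plus SQH, 6.62 in the exercise control and 6.54 in the control, so that both other libraries lay above exercise plus SQH. Its difference was -1.07 against the exercise control (-1.57 to -0.58) and -0.99 against the control (-1.47 to -0.51). Slfn5, Ifi35, Ifi27 and Znfx1 were each lower in exercise control than in control muscle, by differences of -0.71, -0.66, -0.56 and -0.49, and so ran opposite to Ifit3. In that comparison 8 of the 12 were lower and 4 higher. Mx1, Mx2 and Oas3 were listed at 0 in every library. Of 17 sensors and adaptors 2 passed the minimum level, and Mavs, the mitochondrial adaptor of RNA sensing, was called higher in exercise plus SQH against exercise control, at 7.95 against 6.69 (1.26, 0.92 to 1.62), with 7.49 in the control. None of the 7 genes of Isg15 conjugation and feedback passed it.

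**Figure D5:**
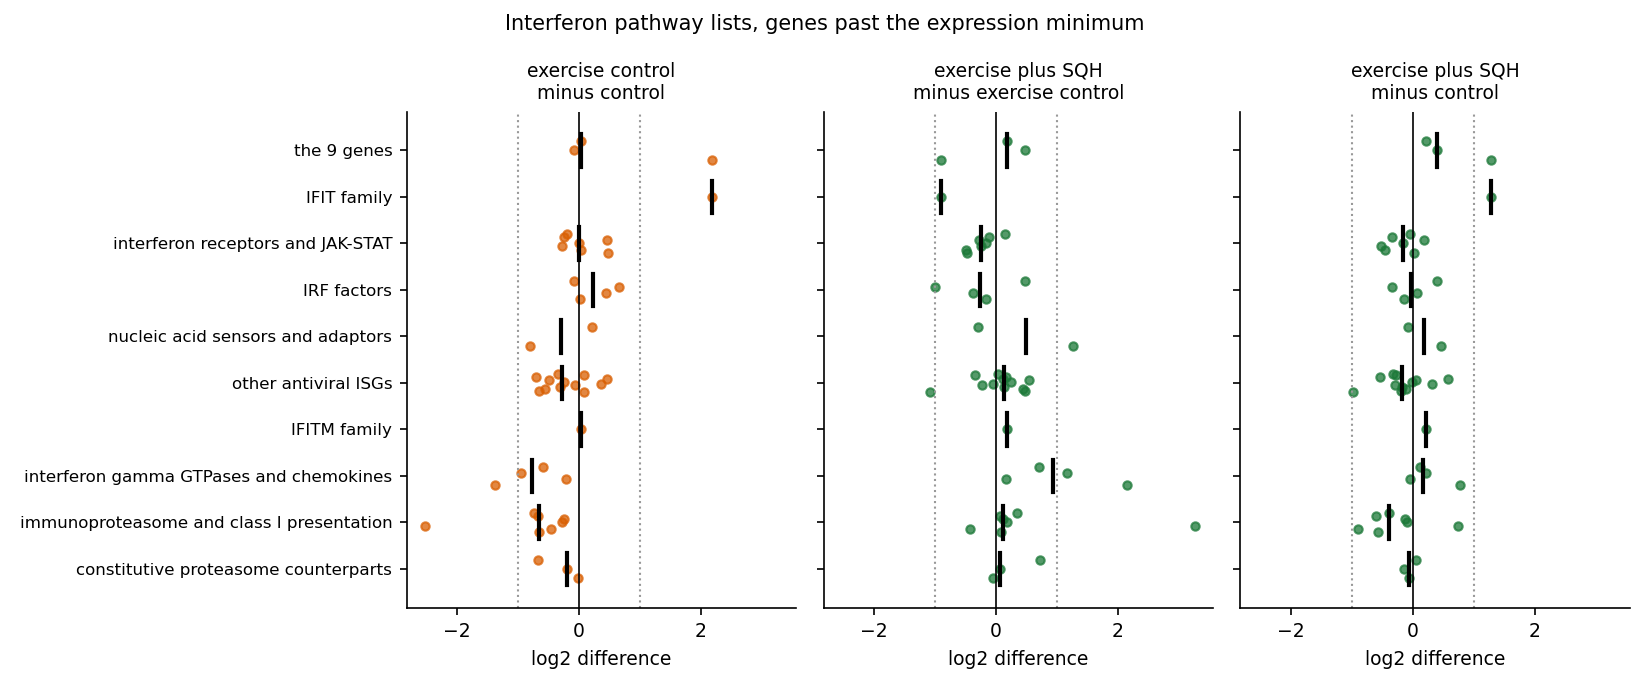
Log2 differences of the genes past the minimum level in each interferon-related list, 1 point per gene, with the median of each list as a bar and dotted lines at 1 and -1, in the 3 comparisons. The top row holds the 3 of the 9 genes past that level. Most points lie between -1 and 1, with Ifit3 above 1 in both comparisons with the control and Tap2 and Gbp6 below -1 in exercise control against control and above 1 in exercise plus SQH against exercise control.

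Genes of antigen presentation and the GTPases induced by interferon gamma were measured beside Psmb8. Of 16 immunoproteasome and class I genes 7 passed the minimum level, 1 was called lower in exercise control against control (median -0.66) and 1 higher in exercise plus SQH against exercise control (median 0.12), and none was called in exercise plus SQH against control (median -0.39). The called gene was Tap2 in both, a subunit of the transporter that carries peptides to class I molecules, at 9.43 in exercise plus SQH, 6.16 in the exercise control and 8.69 in the control, from about 897, 60 and 441 reads. The exercise control was far lower than both others, by -2.54 from the control (-2.95 to -2.15) and with exercise plus SQH 3.27 above it (2.89 to 3.67). Tap2 lies next to Psmb8 at chr17:34203527-34216321 and shares exonic bases with Gm15821 (533 of 3781) and Gm20496 (165) on the other strand. H2-D1, H2-K1 and Psmb10 were lower in exercise control than in control muscle by -0.73, -0.68 and -0.66, none of them called. Of the 16 genes, 13 were above 0 in both of these libraries. Without the minimum level, 2 of the 13 were 2-fold or more higher in the exercise control and 2 lower. Of all rows, 8.54% and 11.8% were. Tap1 was among the higher, by 2.34 (1.26 to 3.58), from about 36 reads against 9. The constitutive counterparts Psmb5, Psmb6 and Psmb7 differed by -0.01, -0.20 and -0.67 in the same comparison, and none was called in any.

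Of 19 genes induced by interferon gamma 4 passed the minimum level. Gbp6, a guanylate-binding protein gene, was called lower in exercise control against control and higher in exercise plus SQH against exercise control, at 8.90 in exercise plus SQH, 6.76 in the exercise control and 8.13 in the control. Its differences were -1.37 (-1.73 to -1.03) and 2.14 (1.82 to 2.48). Gbp10 was called higher in exercise plus SQH against exercise control (1.17, 0.83 to 1.52), at 7.95 against 6.79, with 7.74 in the control. In both genes the exercise control was lowest, where Ifit3 was highest. The end of Gbp10 was found whole in other transcripts of its cluster (451 of 451 stretches) and that of Gbp6 for 77.83% of its stretches, so they cannot be counted as separate measurements. Iigp1 and Gbp7 passed the minimum level without a call. Of the 19 genes, 17 were above 0 in both libraries of exercise control against control. Without the minimum level, 4 of the 17 were 2-fold or more higher in the exercise control and 2 lower (median -0.07). The shares of all rows were 8.54% and 11.8%. Gbp9 was among the higher, by 2.66 (1.25 to 4.40), from about 25 reads against 5. Part of the Gbp6 end also occurred in Gbp9, so their reads may be mixed. In exercise plus SQH against exercise control 8 of 17 were that much higher and 2 lower (median 0.71), beside 11.8% and 7.64% of all rows. In exercise plus SQH against control 8 of 17 were higher and 0 lower (median 0.77), beside 7.65% and 6.31%.

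Immune cells also express interferon-stimulated genes, and the levels of their markers differed by cell type. The summed linear level of 6 pan-leukocyte markers was 92.1 in exercise plus SQH, 57.1 in the exercise control and 63.7 in the control. Most of each sum was Laptm5, at log2 levels of 6.35, 5.77 and 5.43 in the same order. In exercise control against control Laptm5 differed by 0.34 (-0.28 to 0.96), within counting error. Ptprc, which defines leukocytes, was at log2 levels of 3.07, 0 and 2.90, from about 11, 0 and 8 reads. The summed linear level of 11 macrophage markers was 605 in exercise plus SQH, 342 in the exercise control and 387 in the control, led by C1qa at log2 levels of 8.28, 7.60 and 7.51, and 1 of the 11 passed the minimum level. Single macrophage markers differed in order: the sum was lowest in the exercise control, with Cd163 at 4.37, 3.95 and 6.14 and Mrc1 at 6.13, 5.34 and 5.84, whereas Cx3cr1 was highest there, at 4.66, 5.11 and 3.37. In exercise control against control the median of the 10 macrophage markers above 0 in both libraries was 0.21. Of these, 3 were 2-fold or more higher and 2 lower, beside 8.54% and 11.8% of all rows. In exercise plus SQH against exercise control the median of 9 was 0.79, with 4 higher and 0 lower, beside 11.8% and 7.64%. In exercise plus SQH against control the median of 10 was 1.03, with 5 higher and 1 lower, beside 7.65% and 6.31%. Of 10 T and NK cell markers 7 were listed at 0 in every library, as were 4 of 5 B cell markers and 2 of the 5 neutrophil markers found of 6, and these lists summed to at most 1.87, 2.37 and 37.6 linear units in any library, for T and NK cells, B cells and neutrophils. Endothelial markers summed to 3394 in exercise plus SQH, 3641 in the exercise control and 3301 in the control, fibroblast markers to 7672, 9573 and 6703, and adipocyte markers to 5178, 3515 and 4184 in the same order, so the endothelial and fibroblast sums, like Ifit3, were highest in the exercise control. Members of both lists went either way in exercise control against control. Among endothelial markers Kdr differed by 0.77 and Flt1 by -0.38, and Sox18 (-5.88, about 1 read against 78) and Robo4 (-1.62) were called lower. Among fibroblast markers Col1a1 was called higher (1.28) and Col3a1 differed by -0.71. The part of these cells in the Ifit3 difference was not tested.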

How the data were processed

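Total RNA of skeletal muscle (500 ng per library, Trizol) was made into Lexogen QuantSeq libraries, per the labels' protocols, and read on an Illumina NextSeq 500. Bowtie2, edgeR and the build mm10 appear in the submitters' processing notes, with no version or role. None of counter, annotation, scaling, strand handling and read length was given in the sources used here. The authors deposited 1 log2 value per gene row and library, and per the file headers a column carries only a sample code, so the unit was worked out from the values.

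Raised to the linear scale, low values bunched at multiples of a step of 0.768 in exercise plus SQH, 1.19 in the exercise control and 0.938 in the control. Between 86.3% (exercise plus SQH) and 99.8% (control) of values up to 30 fell no more than 0.2 step from a multiple, with 94.8% in the exercise control. Approximate reads are linear value divided by step, so a value of 0 stands for 0 or 1 read in exercise plus SQH and in the control, and 0 reads in the exercise control. Reads so obtained are not exact, and no count model was used. With 1 library per group the planned size rule was applied to the deposited values over the whole table, and intervals are exact (Clopper-Pearson) intervals conditional on the reads of both libraries. The rule was also run on simulated reads that held counting error alone, with planted changes larger than its threshold. Such a run cannot show how the rule fares with variation between animals or library preparations.

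The 9 members and all gene lists were chosen with earlier results of these data known. Genes outside the 9 were named by a rule: every member of the Ifit and Ifitm families, called genes of each list, and up to 4 of its genes past the minimum level with the largest difference in exercise control against control, the 8 rows nearest to Ifit3, and up to 3 markers of a cell type with the highest mean. Siglech, Spib, Ccr9, Ly6d, Cd163, Cx3cr1, Sox18, Robo4, Cmpk2, Tap1, Samd9l, Gbp9, Mx1, Mx2, Oas3 and Ptprc, as well as Ifit3b as a partner in reads, were singled out after their values were seen. For 1 listed gene, levels are not reported here. Positions and exonic overlaps are those of GENCODE M21 on GRCm38, which held 95.72% of the 24421 symbols. Alternatives were other scalings, a pseudocount of 10, other minimum levels and a 1.5-fold threshold. Python 3.11.15, numpy 2.4.6, pandas 2.3.3, scipy 1.17.1, biopython 1.88 and matplotlib 3.10.9 were used.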

Additional observations from a re-analysis of the deposited data

How the results depend on the processing

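No paired analysis was possible because each group has 1 library and no result comes from a test. The count of members called depended on the minimum level: with a value above 0 in both libraries as the sole minimum it was 5 in exercise control against control, 2 in exercise plus SQH against exercise control and 5 in exercise plus SQH against control, and with the 75th percentile as the minimum it was 0 in both comparisons with the control, since Ifit3 lies under that level. A 1.5-fold threshold gave 1 in exercise plus SQH against exercise control, which was Ifit3. Counting members whose interval leaves out 0, an alternative chosen after seeing the data, gave 5, 3 and 5. Of these no-minimum counts, that of exercise control against control was 2 after quantile normalization and 2 with 10 linear units added (Ifit3 and Bst2 each time), and that of exercise plus SQH against exercise control was 0 with 10 units added. All 100 values of single members under the other scalings and the pseudocount kept their sign. A pseudocount cannot change a sign, and centring and the trimmed mean shift every gene of a comparison by the same small amount. That count therefore says little about how firm the signs are. The member median of exercise control against control changed sign with centring (0.03), quantile normalization (0.03) and the trimmed mean (0.02), so its sign carries no information. Over the 3 members past the minimum level, the median was 0.18 in exercise plus SQH against exercise control. It was 0.39 in exercise plus SQH against control. Both medians were negative over all members above 0 in both libraries, so their signs depended on the minimum level. Ifit3 minus the median of the others ranged from 2.004 to 2.27 in exercise control against control and from 1.34 to 1.92 in exercise plus SQH against control, and from -0.51 to 0.00 in exercise plus SQH against exercise control, the last with Ifit3 and Ifit3b summed. Few reads limit Irf7 (about 6, 11 and 10 in exercise plus SQH, exercise control and control), Ifit1 and Ifit2. The same holds for Bst2 in its comparisons with the control, where it had about 6 reads.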

Other observations

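The Ifit cluster was also read with its neighbours on chromosome 19, a set chosen after the values were seen. Within 500 kb on either side 11 protein-coding genes have rows, and 2 of them, Acta2 and Pank1, passed the minimum level. Pank1, which encodes a pantothenate kinase that starts coenzyme A synthesis, was at 9.995 in exercise plus SQH, 10.32 in the exercise control and 9.14 in the control. It was called higher in exercise control against control (1.18), and so had the order of libraries of Ifit3. Acta2, the smooth muscle actin gene, was at 11.21, 11.55 and 11.05 in the same libraries, with differences of at most 0.50. Fas, a death receptor gene between Acta2 and the cluster, had another order, at 5.73 in exercise plus SQH, 3.58 in the exercise control and 4.16 in the control, and did not reach the minimum level.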
